A study of Mus musculus with 2 samples.

Results

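The lysosomal proton pump and the amino acid-sensing machinery around mTORC1 were examined as 51 of the 28692 genes counted in 2 single-cell RNA libraries. The 51 members were the 25 genes whose symbol starts with Atp6v or Atp6ap, and 26 listed genes of Ragulator, the Rag GTPases, GATOR1, GATOR2, mTORC1 and the TSC complex with the lysosomal transporter Slc38a9 and the lysosomal channel Mcoln1. One library came from control mice and the other from Flcn iΔEC mice (labelled KO), in which Cdh5-BAC-CreERT2, a tamoxifen-inducible Cre driven by the promoter of the endothelial cadherin gene, deletes the Flcn flox/flox alleles in endothelial cells. Both libraries held CD31+ mesenteric cells of C57BL/6 pups at postnatal day 8, pooled from 3 mice, after 40 µg doses of 4-hydroxytamoxifen on postnatal days 2, 3.5, 5 and 6.5. The genotype of the control pups is not given in the labels. The comparison asks how the genes of this machinery differ when folliculin, the Flcn product, is deleted in endothelium. With 1 library a group there was no replicate and no test. All intervals are exact 95% intervals that cover counting error only, not the variation between mice.

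The V-ATPase spends ATP in its cytosolic V1 sector to turn a rotor that carries protons through its membrane V0 sector, and so acidifies lysosomes and other organelles. On the lysosomal surface the pump and the Ragulator complex hold the Rag GTPases, which recruit the kinase complex mTORC1 when amino acids are plentiful, and the small GTPase Rheb then switches the kinase on. GATOR1 shuts the Rag GTPases off, GATOR2 restrains GATOR1, and the TSC complex shuts Rheb off. Folliculin acts on RagC and RagD, and the MiT/TFE transcription factors, whose entry into the nucleus depends on that step, bind lysosomal gene promoters at elements with the core CACGTG.

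The cells were split into endothelial cells, with at least 2 unique molecular identifiers (UMIs) of Cdh5, and Ptprc-positive cells, with at least 1 UMI of the leukocyte gene Ptprc (CD45) and fewer than 2 of Cdh5. Endothelial cells numbered 566 in the control and 892 in the KO library, and Ptprc-positive cells 5543 and 2886. All 8 pan-endothelial markers stood above 10 counts per 1000000 UMIs (CPM) in the endothelial cells of both libraries, with summed levels of 5160 and 5164 CPM. These markers include Cdh5, by which the cells were chosen. Markers of other cells were also present in the endothelial cells. Their summed levels in the control and KO library were 263 and 114 CPM for 8 T cell markers and 459 and 252 CPM for 8 B cell markers. They were 347 and 212 CPM for 8 markers of group 3 innate lymphoid cells (ILC3) and 29.7 and 552 CPM for 6 erythroid markers. The part of these other cells in the results was not tested. Of 8 macrophage markers, 0 reached 10 CPM in the endothelial cells of either library. Clusters gave 5 endothelial classes, namely LEC-like (lymphatic; 96 control and 341 KO cells), VEC-like (venous; 70 and 123), AEC-like (arterial; 184 and 157), capillary-like (29 and 17) and HEV-like (high endothelial; 57 and 77), and 5 unnamed clusters held the other endothelial cells. A Ptprc UMI was present in 32.5% of control and 21.9% of KO endothelial cells. In HEV-like cells the shares were 82.5% and 80.5%, and in the other named classes at most 18.75%. In the unnamed clusters they were 89.7% and 85.2% (Ccl4-led), 95.2% and 100% (Ly6d-led) and 100% in both libraries (Cd3d-led). The largest named Ptprc-positive classes were B-like (2243 and 1279 cells) and T-like (1938 and 778). The libraries also differed in sex-linked RNA, with 9 Xist UMIs in the control and 63462 in the KO library, and 15535 and 17 UMIs of 4 Y-linked genes. In every ratio given here this difference and the genotype cannot be told apart. The members Atp6ap1, Atp6ap2 and Rragb are X-linked.

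In endothelial cells the pump and the RagC/RagD arm of the machinery stood higher in the KO library, whereas most GATOR, mTORC1 and TSC genes did not. Of the 43 members with at least 50 UMIs over both libraries, 15 were at least 1.5-fold higher in the KO library and 4 at least 1.5-fold lower, where 7.58% of all 12798 genes with that many UMIs were higher and 16.0% lower. The median log2 ratio of CPM, KO over control, was 0.76 over 18 V-ATPase members and 0.42 over 8 Ragulator and Rag members, but -0.19 over 8 GATOR members and -0.20 over 7 mTORC1 and TSC members, against -0.13 over all genes. In Ptprc-positive cells of the same libraries, 0 of 43 members were at least 1.5-fold higher and 1 was lower (Wdr59), where 8.56% of 12640 genes were higher and 4.65% lower. The V-ATPase genes of endothelial cells summed to 1494 CPM (1474 to 1515) in the control library and to 2606 CPM (2587 to 2625) in the KO library, a ratio of 1.74 (1.72 to 1.77). In Ptprc-positive cells they summed to 1123 and 1076 CPM, a ratio of 0.958 (0.945 to 0.972). The endothelial ratio of 1.74 lay above those of the VEC-like (1.69), HEV-like (1.42) and capillary-like (1.35) classes. It also lay above that of each cluster in the LEC-like and AEC-like classes, but below the unnamed Ube2c-led (2.04) and Ly6d-led clusters (1.80). LEC-like cells were 96 of 566 control and 341 of 892 KO endothelial cells, and the part of such shares in the ratio was not tested.

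**Figure D1:**
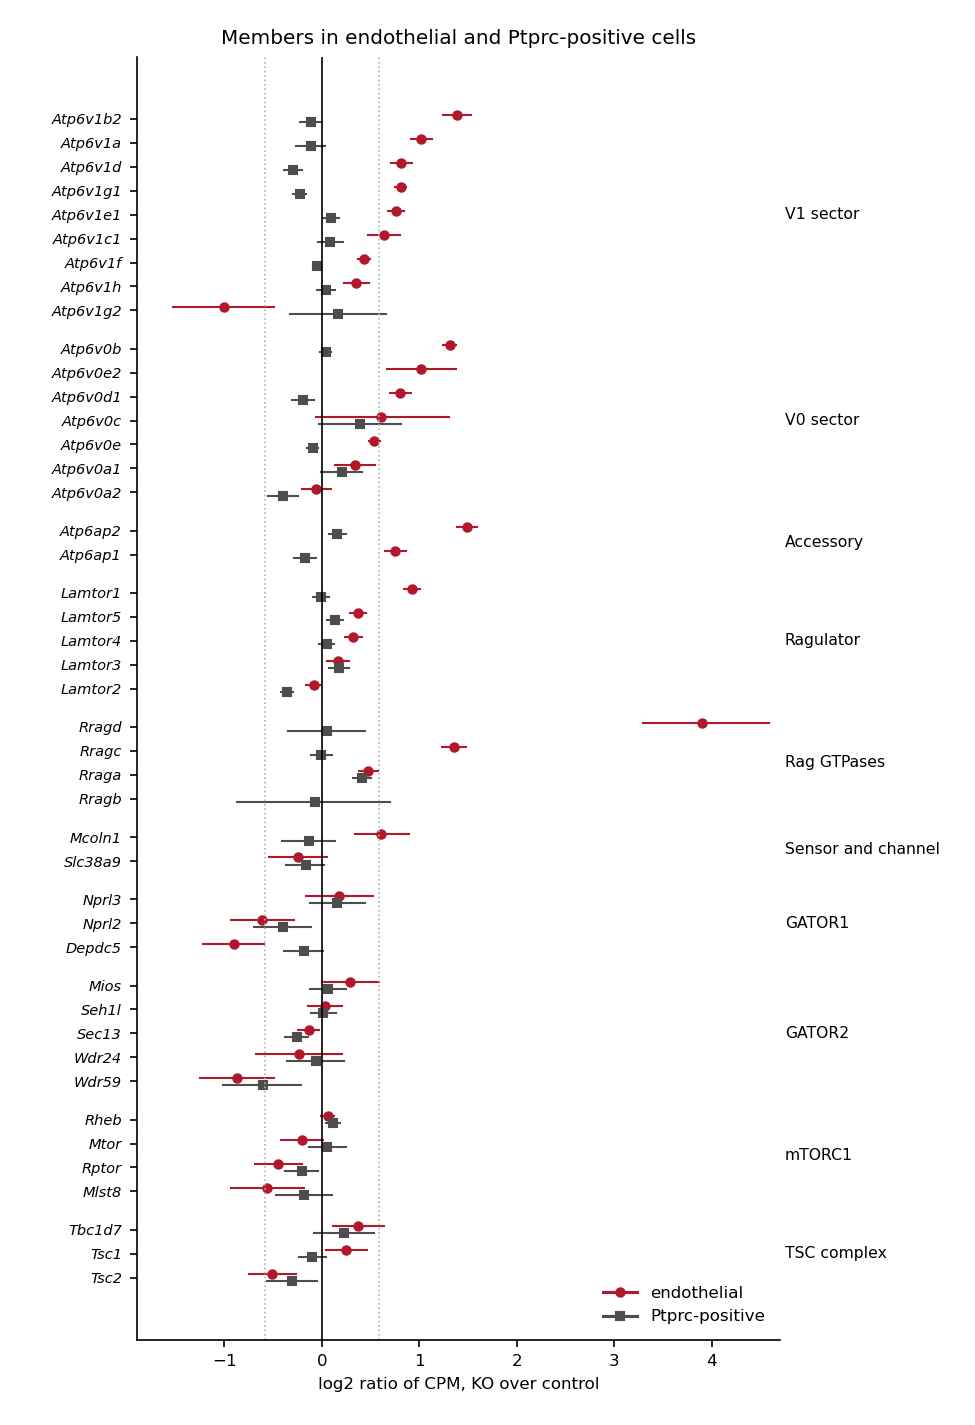
log2 ratio of CPM, KO over control, for each member with at least 50 UMIs, in endothelial cells (red circles) and Ptprc-positive cells (grey squares), grouped by complex. Lines are exact 95% intervals for counting error and dotted lines mark a 1.5-fold ratio. V-ATPase points of endothelial cells lie mostly right of the upper dotted line (11 of 18), Rragd lies farthest right, and the Ptprc-positive points lie near 0.

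The core CACGTG was searched in the promoter windows that RefSeq sequences on GRCm38.p6 give for 41 of the 51 members, from 250 bases before to 50 bases after the annotated start, on both strands (the core reads the same on each). It was present in 7.15% of all 32851 windows. Of the 15 members at least 1.5-fold higher in KO endothelial cells, 12 had a window and 6 of these held the core (Atp6v0b, Atp6v0d1, Atp6v1a, Lamtor1, Mcoln1 and Rragc). Of the other 28 members with enough UMIs, 23 had a window and 4 held it (Atp6v0e, Lamtor4, Rheb and Tbc1d7). The extended form TCACGTG, which contains the core, was present in 3.77% of all windows and in the windows of 10 members, and TCATGTG, which does not contain it, in 3.77% and in 3 members (Atp6v0c, Lamtor1 and Lamtor2). The 250 bases upstream of the start follow for Rragd, the member with the largest ratio, whose window held none of these elements, and for the 4 members among the 10 largest ratios whose window held the core, which is in capitals. They are written 5′ to 3′ along the gene and come from chr4:32982748-32982997 (plus strand, Rragd), chr4:123917183-123917432 (plus strand, Rragc), chr4:117887330-117887579 (minus strand, Atp6v0b), chr16:44139260-44139509 (minus strand, Atp6v1a) and chr7:101905587-101905836 (plus strand, Lamtor1).
Rragd: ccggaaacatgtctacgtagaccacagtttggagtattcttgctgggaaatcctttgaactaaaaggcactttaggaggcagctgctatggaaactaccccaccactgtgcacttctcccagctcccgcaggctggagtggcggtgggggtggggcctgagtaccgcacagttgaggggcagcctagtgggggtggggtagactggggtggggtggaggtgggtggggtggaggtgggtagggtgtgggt
Rragc: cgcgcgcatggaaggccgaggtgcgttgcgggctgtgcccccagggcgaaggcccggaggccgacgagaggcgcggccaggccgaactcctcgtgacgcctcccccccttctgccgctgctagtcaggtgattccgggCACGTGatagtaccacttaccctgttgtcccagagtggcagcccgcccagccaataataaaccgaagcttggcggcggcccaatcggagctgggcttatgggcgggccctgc
Atp6v0b: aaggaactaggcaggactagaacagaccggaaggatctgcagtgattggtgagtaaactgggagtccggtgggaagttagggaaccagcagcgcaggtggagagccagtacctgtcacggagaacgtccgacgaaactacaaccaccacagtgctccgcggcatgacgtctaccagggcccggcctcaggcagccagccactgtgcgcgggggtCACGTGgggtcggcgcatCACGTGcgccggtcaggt
Atp6v1a: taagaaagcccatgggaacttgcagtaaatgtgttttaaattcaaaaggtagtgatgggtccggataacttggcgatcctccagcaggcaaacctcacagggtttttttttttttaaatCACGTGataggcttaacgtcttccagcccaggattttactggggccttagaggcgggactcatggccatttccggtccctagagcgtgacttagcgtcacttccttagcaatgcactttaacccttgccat
Lamtor1: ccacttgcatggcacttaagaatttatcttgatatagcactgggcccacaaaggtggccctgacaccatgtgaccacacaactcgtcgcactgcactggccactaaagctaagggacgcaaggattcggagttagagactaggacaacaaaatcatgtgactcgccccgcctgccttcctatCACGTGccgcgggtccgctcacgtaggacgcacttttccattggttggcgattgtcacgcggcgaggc
Atp6v0b carried the core at positions -36 and -18 from its start, Lamtor1 at -68, Rragc at -112 and Atp6v1a at -131. A match of letters is a description of these windows and not a measured binding site.

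The V1 sector hydrolyses ATP, and 6 of its 9 members with enough UMIs were at least 1.5-fold higher in KO endothelial cells and 1 was lower. Of all genes in these cells, 7.58% were higher and 16.0% lower. Atp6v1a encodes the catalytic subunit and had 859 UMIs in control and 3397 in KO endothelial cells, or 61.5 and 125 CPM, a ratio of 2.03 (1.88 to 2.19). Its ratio was 1.74 (1.49 to 2.05) in LEC-like, 2.16 (1.72 to 2.73) in VEC-like, 1.66 (1.40 to 1.97) in AEC-like and 2.12 (1.74 to 2.58) in HEV-like cells. The interval of the catalytic subunit lay above 1 in each of these classes, but the LEC-like ratio was 1.24 with every cell thinned to 2000 UMIs and the VEC-like ratio 1.07 when the cells were clustered without integration of the libraries. The VEC-like class then held 63 control cells and 1 KO cell, so that its values without integration rest on that cell.

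Atp6v1b2, the partner of Atp6v1a in the ATP-binding ring of most tissues, had 468 and 2379 UMIs, or 33.5 and 87.4 CPM, a ratio of 2.61 (2.36 to 2.89). That was the largest ratio in the sector, and it was not shared alike by the endothelial classes. In LEC-like cells Atp6v1b2 was at 46.3 and 115 CPM, a ratio of 2.49 (2.03 to 3.07), and in VEC-like cells at 30.3 and 106 CPM, a ratio of 3.49 (2.54 to 4.89). In AEC-like cells it was at 32.8 and 38.1 CPM, a ratio of 1.16 (0.886 to 1.53), and in HEV-like cells at 26.5 and 31.9 CPM, a ratio of 1.2 (0.909 to 1.6). The intervals of the lymphatic and venous ratios did not overlap those of the arterial and high endothelial ratios, but with thinning the lymphatic ratio was 1.45, and with clustering at a resolution of 1.6 the venous ratio was 2.27.

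The ratios of the other V1 members with enough UMIs ran from 0.498 to 1.76. Atp6v1d, a subunit of the central rotor shaft, was measured at 69.4 and 122 CPM in control and KO endothelial cells, a ratio of 1.76 (1.64 to 1.89). Atp6v1g1, a peripheral stalk subunit and the V1 transcript with the most UMIs (each UMI stands for 1 RNA molecule whatever its length), was at 250 and 438 CPM, a ratio of 1.75 (1.69 to 1.82). Atp6v1e1, its partner in that stalk, had a ratio of 1.69 (1.6 to 1.80) and Atp6v1c1, which joins the stalks to the membrane sector, 1.56 (1.39 to 1.75). Atp6v1f of the shaft (1.35; 1.3 to 1.41) and Atp6v1h, which couples the sectors and checks the activity of free V1 (1.28; 1.17 to 1.40), were higher by less than 1.5-fold. Atp6v1g2, a G subunit best known from neurons, was the only V1 member lower in the KO library, with 67 and 65 UMIs, or 4.80 and 2.39 CPM, a ratio of 0.498 (0.348 to 0.711).

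The membrane sector V0 holds the proteolipid ring and the a and d subunits. Of its 7 members with enough UMIs, 3 were at least 1.5-fold higher and 0 lower, where 7.58% and 16.0% of all genes were. Atp6v0b, a proteolipid of the ring, had 2226 and 10769 UMIs, or 159 and 396 CPM, a ratio of 2.48 (2.37 to 2.60). It was at 230 and 530 CPM in LEC-like, 154 and 374 CPM in VEC-like, 172 and 307 CPM in AEC-like, 211 and 306 CPM in capillary-like and 130 and 238 CPM in HEV-like cells, and of the 5 ratios only the capillary-like one, 1.45 (1.01 to 2.09), was under 1.5. Without integration, with the 1 KO cell left in the class, the VEC-like ratio was 5.0 in place of 2.43. Atp6v0d1, which joins the ring to the rotor shaft, had a ratio of 1.74 (1.62 to 1.88). Atp6v0e, a small membrane subunit and the V0 transcript with the most UMIs in control endothelial cells, was at 242 and 352 CPM, a ratio of 1.45 (1.40 to 1.51). Of the a subunits, which form the proton channel, Atp6v0a1 had a ratio of 1.27 (1.10 to 1.46) and Atp6v0a2, typical of Golgi and endosomes, 0.961 (0.867 to 1.07), so the interval of the second held 1. With 1 count added, Mcoln1 (1.52) and Atp6v1c1 (1.56) were the members just inside the 1.5-fold limit, and Atp6v0c (1.48) and Atp6v0e (1.45) those just outside it.

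Atp6v0e2, another form of the small membrane subunit, had its highest level among the named classes in LEC-like cells of both libraries. It was at 25.2 and 26.3 CPM in control and KO LEC-like cells, a ratio of 1.05 (0.779 to 1.42), and had 13 and 8 UMIs in VEC-like cells, 0 in AEC-like cells of either library and 12 and 6 in all Ptprc-positive cells. It was the only member at least 4-fold higher in an endothelial class than in any named Ptprc-positive class in both libraries. Its ratio over all endothelial cells was 2.03 (1.59 to 2.60), beside 96 control and 341 KO LEC-like cells, and the part of these numbers in the ratio was not tested. Outside the LEC-like class it was higher in the unnamed Ube2c-led cluster, with 6 and 29 UMIs, or 3.09 and 10.1 CPM, a ratio of 3.27 (1.34 to 9.64), and stood at 21.8 CPM in the Hbb-bt-led cluster, which held cells of the KO library only. Atp6v0c, the main proteolipid, had only 26 and 77 UMIs in endothelial cells, a ratio of 1.52 (0.963 to 2.47). The annotation holds processed pseudogenes of Atp6v0c, and reads that match several copies may not be counted, so its value is uncertain.

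The accessory subunits aid the assembly of the pump, and both with enough UMIs were at least 1.5-fold higher, where 7.58% of all genes were. Atp6ap2, the (pro)renin receptor, had 932 and 5098 UMIs, or 66.8 and 187 CPM, a ratio of 2.81 (2.62 to 3.01), the second largest of all members. Its ratio was 2.36 (2.05 to 2.73) in LEC-like, 3.05 (2.45 to 3.82) in VEC-like, 2.45 (2.07 to 2.92) in AEC-like and 2.03 (1.71 to 2.41) in HEV-like cells, and 1.12 (1.05 to 1.19) in Ptprc-positive cells, where it was 0.966 with thinning to 2000 UMIs a cell. Atp6ap1, a V0 assembly factor and luminal subunit, had 995 and 3275 UMIs, or 71.3 and 120 CPM, a ratio of 1.69 (1.57 to 1.81), against 0.890 (0.824 to 0.962) in Ptprc-positive cells. Both genes are X-linked, and the difference in Xist and the genotype cannot be told apart for them.

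The remaining pump genes had few or no UMIs. Atp6v1b1, Atp6v1e2 and Atp6v0d2 had 0 UMIs in control and 1 in KO endothelial cells, Atp6v1c2 had 0 and 5, and Atp6v0a4 had 2 and 13. Among these are subunit forms best known from kidney, testis and osteoclasts. Atp6v1g3 and Atp6ap1l had 0 UMIs in endothelial cells of both libraries, which at this depth allows a level of up to 0.215 CPM in the control.

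Ragulator is a scaffold of 5 subunits, and 1 of them was at least 1.5-fold higher, where 7.58% of all genes were. Lamtor1, the lipid-anchored subunit that ties the complex to the lysosome, had 1605 and 5952 UMIs, or 115 and 219 CPM, a ratio of 1.90 (1.80 to 2.01). Its ratio was 2.07 (1.84 to 2.35) in LEC-like, 1.69 (1.43 to 2.0) in VEC-like, 1.68 (1.47 to 1.93) in AEC-like and 1.47 (1.28 to 1.69) in HEV-like cells, against 0.997 (0.941 to 1.06) in Ptprc-positive cells. The paired core subunits were closer to 1, with ratios of 1.3 (1.22 to 1.37) for Lamtor5, 1.25 (1.18 to 1.33) for Lamtor4, 1.12 (1.04 to 1.22) for Lamtor3 and 0.944 (0.895 to 0.997) for Lamtor2. The anchor thus stood apart from the subunits it wraps, whose intervals all lay below its own. Lamtor2 was lower in Ptprc-positive cells as well, with a ratio of 0.779 (0.746 to 0.813).

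The Rag GTPases work as pairs of RagA or RagB with RagC or RagD, and the libraries differed mainly on the RagC and RagD side. Rragd (RagD; chromosome 4, 32983037 to 33022180 on GRCm38) had 22 and 642 UMIs in control and KO endothelial cells, or 1.58 and 23.6 CPM, a ratio of 15 (9.80 to 24.1), the largest of all members. Rragc (RagC; chromosome 4, 123917446 to 123936997) had 632 and 3146 UMIs, or 45.3 and 116 CPM, a ratio of 2.55 (2.34 to 2.79). The promoter window of Rragc held the core CACGTG and that of Rragd did not. Rragc was at 58.9 and 157 CPM in LEC-like, 55.9 and 114 CPM in VEC-like, 42.6 and 82.9 CPM in AEC-like and 36.6 and 69.4 CPM in HEV-like cells, with ratios from 1.89 to 2.68. The annotated pseudogene Gm12902 overlaps Rragc on the same strand, and reads in the overlap may be counted for neither. Rraga (RagA) was at 85.6 and 119 CPM, a ratio of 1.39 (1.3 to 1.49), but its ratio in Ptprc-positive cells was nearly as large, 1.33 (1.24 to 1.42). Rragb (RagB) had 7 and 14 UMIs, too few for a comparison.

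Rragd was higher in LEC-like, VEC-like, AEC-like and HEV-like cells, and its KO level was highest in lymphatic cells. In LEC-like cells it had 11 and 384 UMIs, or 4.94 and 40.9 CPM, a ratio of 8.27 (4.57 to 16.7). In VEC-like cells it had 0 and 42 UMIs. Its KO level there was 6.34-fold above the level of 3 UMIs that a count of 0 allows in the control class. This value leaves out the counting error of the 42 KO UMIs. In AEC-like cells it had 3 and 50 UMIs, a ratio of 12.7 (4.10 to 63.6), and in HEV-like cells 3 and 78, a ratio of 19.8 (6.52 to 97.9). The 3 intervals overlapped, so these ratios cannot be ordered, whereas the KO level of LEC-like cells lay above 13.1 CPM in VEC-like, 13.7 CPM in AEC-like and 18.7 CPM in HEV-like cells, with intervals apart. Capillary-like cells had only 0 and 3 UMIs.

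The Rragd UMIs were uneven within the classes too. Of the 50 KO UMIs in AEC-like cells, 49 came from the Gkn3-led cluster, in which the ratio was 6.80 (2.20 to 34.1) in place of 12.7, and 1 from the Cxcl12-led cluster. Within the LEC-like class the Aqp8-led cluster had a KO level of 73.0 CPM (5 and 225 UMIs) and the larger Lcn2-led cluster one of 24.9 CPM (0 and 107 UMIs). The Ccl2-led LEC-like cluster held 6 of the 11 control UMIs and 38 KO UMIs, and its ratio of 2.92 (1.23 to 8.46) lay below the 6.46 (2.73 to 20.1) of the Aqp8-led cluster, with overlapping intervals. The Tnxb-led cluster had 0 and 14 UMIs. With every cell reduced at random to 2000 UMIs, 1 of 560 control and 47 of 889 KO endothelial cells held a Rragd UMI, or 0.179% and 5.29%, and the ratio of levels was 32.1. Without this thinning the shares were 2.65% and 36.1%, at median depths of 16127 and 24415 UMIs a cell.

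In Ptprc-positive cells Rragd was at 3.17 and 3.28 CPM, a ratio of 1.04 (0.787 to 1.36). The control value included 42 UMIs from 10 cells led by the intestinal genes Rbp2 and Fabp1. Without that cluster, a choice made after its values were seen, the levels were 2.29 and 3.30 CPM and the ratio 1.44 (1.07 to 1.93). The thinned shares of Ptprc-positive cells with a Rragd UMI were 0.465% and 0.918%, and the unthinned ones 1.88% and 2.67% at median depths of 7268 and 8052 UMIs. The ratio of Rragd in Ptprc-positive cells thus depended on a few cells, and under the alternatives it ranged from 1.04 to 1.97, against 14 to 32.1 in endothelial cells. Rragc was at 42.4 and 42.2 CPM in Ptprc-positive cells, a ratio of 0.997 (0.926 to 1.07).

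**Figure D2:**
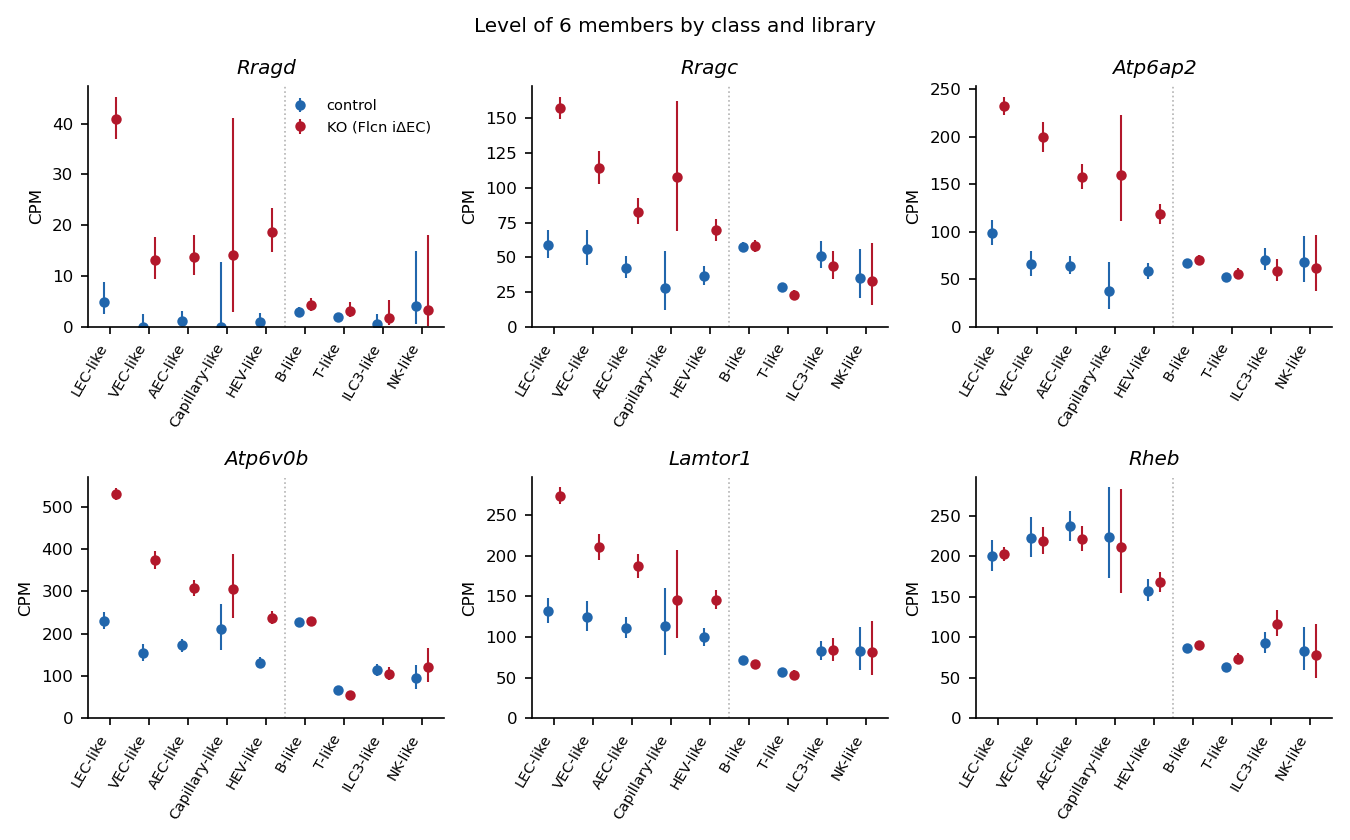
Level in CPM (linear axis from 0) of 6 members in 9 cell classes, control in blue and KO in red, with exact 95% intervals for counting error; the dotted line parts endothelial from Ptprc-positive classes. Red lies above blue in the LEC-like, VEC-like, AEC-like and HEV-like classes for Rragd, Rragc, Atp6ap2, Atp6v0b and Lamtor1, while the 2 libraries lie close together for Rheb in these classes and for Atp6v0b in B-like cells.

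Mcoln1 encodes the lysosomal calcium channel TRPML1 and had 146 and 435 UMIs in endothelial cells, or 10.5 and 16.0 CPM, a ratio of 1.53 (1.26 to 1.86). Its ratio in Ptprc-positive cells was 0.912 (0.755 to 1.10). For Slc38a9, the arginine-sensing lysosomal transporter that binds Ragulator, the interval of the ratio held 1, at 0.843 (0.685 to 1.04).

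Of the 3 subunits of GATOR1, which inactivates RagA and RagB, 2 were at least 1.5-fold lower in KO endothelial cells, where 16.0% of all genes were. Depdc5 had 168 and 175 UMIs, or 12 and 6.43 CPM, a ratio of 0.534 (0.430 to 0.664), and Nprl2 had 147 and 188 UMIs, or 10.5 and 6.91 CPM, a ratio of 0.656 (0.526 to 0.820). Nprl3, the other subunit, had a ratio of 1.13 (0.892 to 1.44). Under the alternatives the Nprl2 ratio ranged from 0.597 to 0.731 in endothelial cells and, much alike, from 0.610 to 0.791 in Ptprc-positive cells. The Depdc5 ratio ranged from 0.478 to 0.566 in endothelial cells and from 0.844 to 0.963 in Ptprc-positive cells. Depdc5 was at 15.7 and 7.56 CPM in LEC-like cells, a ratio of 0.481 (0.316 to 0.743), at 13.7 and 4.39 CPM in AEC-like cells, a ratio of 0.320 (0.167 to 0.588), and at 8.21 and 7.92 CPM in HEV-like cells, a ratio of 0.965 (0.560 to 1.68). The gene thus stood lower in lymphatic and arterial cells, and its interval in high endothelial cells held 1. In GATOR2, which restrains GATOR1, Wdr59 was at 8.31 and 4.56 CPM, a ratio of 0.548 (0.422 to 0.712), and in Ptprc-positive cells its ratio was 0.658 (0.496 to 0.865). Sec13, which also serves in vesicle coats and nuclear pores, was at 78.6 and 71.6 CPM, a ratio of 0.910 (0.845 to 0.981). The ratios of the other GATOR2 members were 1.23 (1.0 to 1.5) for Mios, 1.02 (0.904 to 1.15) for Seh1l and 0.848 (0.627 to 1.15) for Wdr24. Of the 3 GATOR members at least 1.5-fold lower, Depdc5 and Nprl2 belong to GATOR1 and Wdr59 to GATOR2. The other subunits of both complexes had ratios from 0.848 to 1.23. Small annotated RNA genes or gene models (Gm24003 and Gm43693) overlap Depdc5, which adds uncertainty to its counts.

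The kinase complex and its upstream switch were nearer to the control level. Rheb, the activating GTPase, had 2793 and 5680 UMIs, or 200 and 209 CPM, a ratio of 1.04 (0.997 to 1.09), with ratios from 0.933 to 1.07 in the LEC-like, VEC-like, AEC-like and HEV-like classes. Mtor, the kinase, was at 20.8 and 18.1 CPM, a ratio of 0.870 (0.751 to 1.01). Rptor, which picks the substrates, had a ratio of 0.734 (0.623 to 0.867) and Mlst8, a stabilising subunit, 0.679 (0.525 to 0.880), both below the control but by less than 1.5-fold. Of the TSC complex, Tsc1 had a ratio of 1.19 (1.03 to 1.38), which was 0.832 with thinning, Tbc1d7 one of 1.3 (1.08 to 1.56) and Tsc2, the subunit that acts on Rheb, one of 0.704 (0.597 to 0.832). The members of this arm pointed in both directions, and their summed level was 295.2 CPM in the control and 295.7 CPM in the KO library, a ratio of 1.0 (0.96 to 1.04). Rheb, at 200 and 209 CPM, made up most of this sum, which therefore says little about the other members.

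More of these genes with enough UMIs were lower in AEC-like cells than in the other classes, a difference that was not tested. In AEC-like cells 3 of 7 GATOR members with enough UMIs (Depdc5, Nprl2 and Wdr59) and 4 of 7 mTORC1 and TSC members (Mtor, Rptor, Mlst8 and Tsc2) were at least 1.5-fold lower, where 14.4% of all genes were. Mtor was at 19.5 and 12.1 CPM there, a ratio of 0.620 (0.407 to 0.940), and Rptor at 19.1 and 11.5 CPM, a ratio of 0.603 (0.392 to 0.921). Tsc1, the partner that stabilises Tsc2, was at 11.9 and 19.8 CPM, a ratio of 1.66 (1.08 to 2.59), and was 1 of 9 members at least 1.5-fold higher in AEC-like cells, where 6.42% of all genes were. The Tsc1 ratio ranged from 1.39 to 2.74 under the alternatives and was under 1.5 with equal weight per cell, 20 dimensions, a resolution of 1.6 or no integration. In LEC-like cells 4 of 40 members were lower (Depdc5, Wdr59, Mlst8 and Tsc2; 21.7% of all genes), and in VEC-like and HEV-like cells 0 of 32 and 0 of 37 were (14.7% and 6.05%). Depdc5, Nprl2, Wdr59 and Mlst8 had under 50 UMIs in VEC-like cells, as did Wdr59 and Mlst8 in HEV-like cells. They could not be called there, so the classes were not compared on the same genes. The AEC-like class held different clusters in the 2 libraries, with 131 control and 47 KO cells in the Cxcl12-led cluster and 53 and 110 in the Gkn3-led cluster, and the part of this in the AEC-like values was not tested.

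The V-ATPase stood higher in each endothelial class, with more members past 1.5-fold in lymphatic and venous cells. In LEC-like cells 11 of 16 members with enough UMIs were at least 1.5-fold higher (7.21% of all genes), with a median log2 ratio of 0.69, and in VEC-like cells 9 of 15 (8.57%), with a median of 0.69. In AEC-like cells 5 of 15 were higher (6.42%), with a median of 0.40, and in HEV-like cells 4 of 15 (8.04%), with a median of 0.46. In the small capillary-like class 5 members had enough UMIs and 0 passed 1.5-fold in either direction (12.3% of genes higher and 12.6% lower), with a median of 0.27. The number of V-ATPase members at least 1.5-fold lower was 0 in each of the 5 classes. Of all genes, 21.7% were lower in LEC-like, 14.7% in VEC-like, 14.4% in AEC-like and 6.05% in HEV-like cells. Atp6v1g2, which was lower over all endothelial cells, had under 50 UMIs in each of these 4 classes and was not counted in them. With thinning the LEC-like median was 0.38. The classes also differed between the libraries in their own markers, since the venous markers of VEC-like cells summed to 4559 and 2545 CPM and their capillary markers to 8310 and 2307 CPM, the high endothelial markers of HEV-like cells to 12897 and 5372 CPM, the lymphatic markers of LEC-like cells to 5491 and 7107 CPM and the arterial markers of AEC-like cells to 2606 and 2512 CPM in the control and KO library. The part of these shifts in the class values was not tested, and differences between classes were not tested, as each class came from the same pair of libraries.

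**Figure D3:**
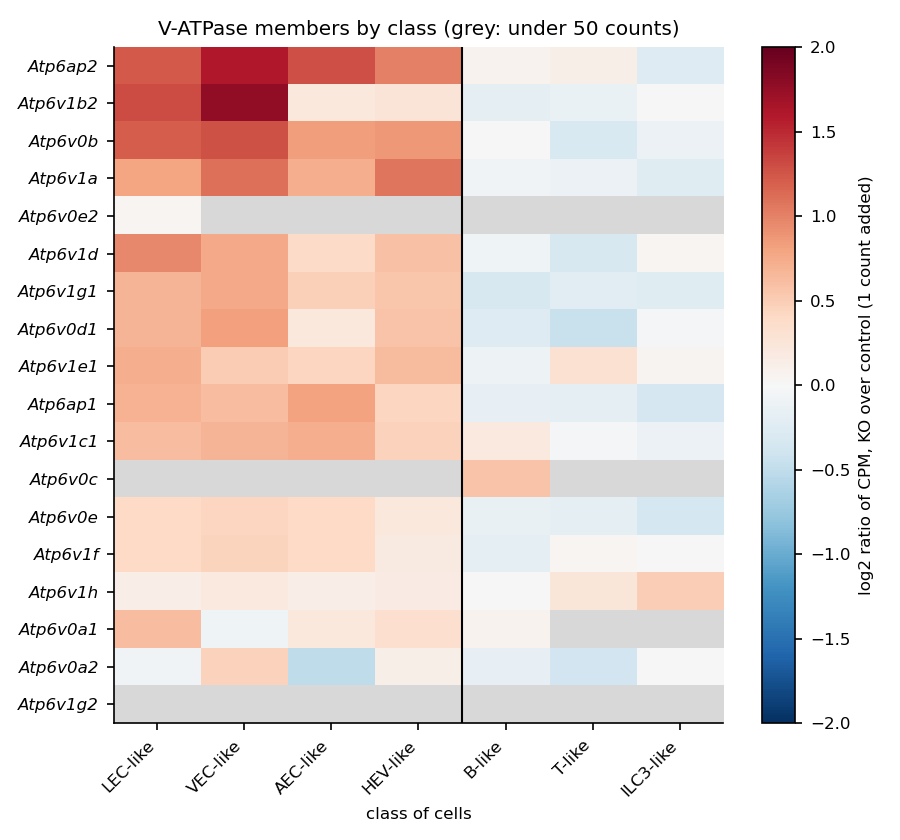
log2 ratio of CPM (1 count added), KO over control, of the 18 V-ATPase members with at least 50 UMIs in all endothelial cells (lines) in 4 endothelial and 3 Ptprc-positive classes (columns); red is higher and blue lower in the KO library, and grey marks members with under 50 UMIs in that class. The endothelial columns are mostly red, with Atp6v1b2 pale in AEC-like and HEV-like cells, and the B-like, T-like and ILC3-like columns are mostly pale or blue.

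Since the classes pooled clusters whose shares of cells differed between the libraries, the summed V-ATPase level was also compared cluster by cluster. In the AEC-like class the ratio was 1.61 (1.52 to 1.71) in the Cxcl12-led and 1.24 (1.18 to 1.31) in the Gkn3-led cluster. In the 4 LEC-like clusters it was 1.59 (1.51 to 1.68) for the Lcn2-led, 1.52 (1.43 to 1.62) for the Aqp8-led, 1.58 (1.48 to 1.69) for the Ccl2-led and 1.42 (1.28 to 1.58) for the Tnxb-led cluster. Among the unnamed clusters the ratio was 2.04 (1.95 to 2.13) in the one led by the mitotic gene Ube2c, with 55 and 59 cells, and 1.40 (1.33 to 1.48) in the one led by the chemokine gene Ccl4. The smallest clusters, led by the B cell gene Ly6d and the T cell gene Cd3d, had ratios of 1.80 (1.62 to 2.01) and 1.25 (1.05 to 1.49). An Hbb-bt-led cluster of 46 cells held cells of the KO library only, at 3044 CPM, and allowed no comparison.

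LEC-like cells had the highest summed V-ATPase level of the endothelial classes in both libraries. In the control, LEC-like cells were at 1911 CPM (1854 to 1969), AEC-like cells at 1600 CPM (1553 to 1648) and VEC-like cells at 1582 CPM (1518 to 1649), with overlapping intervals for the last pair. Capillary-like cells were at 1449 CPM (1314 to 1595), an interval that overlapped those of AEC-like, VEC-like and HEV-like cells, and HEV-like cells at 1283 CPM (1243 to 1323), just under the B-like cells at 1339 CPM (1322 to 1356) with intervals that touched. In the KO library the order was LEC-like at 3137 CPM (3101 to 3173), VEC-like at 2678 CPM (2622 to 2735), AEC-like at 2297 CPM (2248 to 2347), capillary-like at 1956 CPM (1772 to 2153) and HEV-like at 1822 CPM (1782 to 1864), with overlap only between the last pair. All 5 then stood above the B-like (1238 CPM), T-like (806 CPM), ILC3-like (1207 CPM) and NK-like cells (1209 CPM). Neutrophil-like cells, only 7 and 5 in number, were at 1781 CPM (1434 to 2187) in the control and 2009 CPM (1593 to 2500) in the KO library. The KO value lay above the capillary-like and HEV-like ones, with overlapping intervals. Dendritic-like cells, 25 and 5 in number, were at 1758 CPM (1633 to 1889) in the control and 1370 CPM (1135 to 1640) in the KO library. Macrophage-like cells, only 7 and 12 in number, were at 2679 CPM (2295 to 3108) in the control and 2921 CPM (2703 to 3153) in the KO library, above every control endothelial class. The interval of KO LEC-like cells thus overlapped that of this small phagocyte class.

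Levels of endothelial and Ptprc-positive cells depend on the genes that make up the scale, since mitochondrial, ribosomal protein and hemoglobin genes took 23.1% of UMIs in control endothelial and 40.1% in control Ptprc-positive cells. Without those genes the control V-ATPase level of endothelial over Ptprc-positive cells was 1.04 instead of 1.33, and the KO one 1.88 instead of 2.42.

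**Figure D4:**
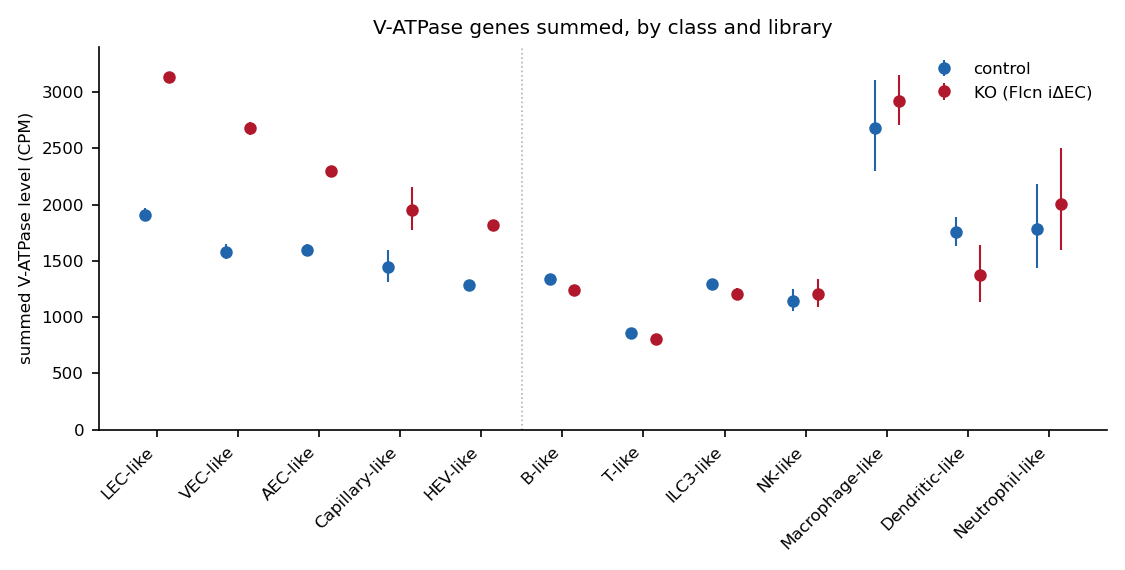
Summed level of the 25 V-ATPase genes in CPM (linear axis from 0) in 12 named classes, control in blue and KO in red, with exact 95% intervals for counting error; the dotted line parts endothelial from Ptprc-positive classes. The 5 endothelial classes lie higher in the KO library, for example 3137 against 1911 CPM in LEC-like cells, and the lymphocyte classes lie close together.

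Within the Ptprc-positive cells the V-ATPase median log2 ratio was -0.05 over 17 members, -0.09 in B-like, -0.16 in T-like, -0.07 in ILC3-like and -0.08 in NK-like cells. The number of V-ATPase members past 1.5-fold in either direction was 0 in each of these classes, where the shares of all genes higher and lower were 4.28% and 5.49% in B-like, 4.7% and 4.9% in T-like, 4.15% and 4.8% in ILC3-like and 7.35% and 8.38% in NK-like cells. Some single members still differed by more than counting error. Atp6v1d was at 63.0 and 51.2 CPM, a ratio of 0.813 (0.762 to 0.867), and Atp6v1g1 at 124 and 106 CPM, a ratio of 0.856 (0.818 to 0.895). Atp6v0b, at 141 and 146 CPM, had a ratio of 1.03 (0.989 to 1.07). Among the other members, Tsc2 was at least 1.5-fold lower in B-like cells, Wdr59 lower and Mlst8 higher in T-like cells, and Seh1l higher in ILC3-like and Lamtor5 in NK-like cells.

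Other genes of the pathway were described in endothelial cells from lists set by function. Of 10 genes for the a3 subunit and pump assembly, 1 was at least 1.5-fold higher and 1 lower, near the shares of 7.58% and 16.0% over all genes. Tmem199, an assembly factor, was higher at 19.1 and 30.5 CPM, a ratio of 1.6 (1.39 to 1.84). Ncoa7, of the TLDc family that binds the pump, was lower at 130 and 71.3 CPM, a ratio of 0.549 (0.515 to 0.586). The assembly factors Ccdc115 (1.35; 1.21 to 1.49) and Vma21 (1.31; 1.2 to 1.43) were higher by less, and Tcirg1, the a3 subunit, had a ratio of 1.12 (1.0 to 1.25). Against the same shares over all genes, 2 of 6 FLCN-complex and MiT/TFE genes with enough UMIs were at least 1.5-fold higher and 0 lower. These were the folliculin partners Fnip1, at 18.8 and 37.4 CPM, a ratio of 1.99 (1.73 to 2.28), and Fnip2, at 14.3 and 27.0 CPM, a ratio of 1.88 (1.61 to 2.21). The transcripts of the transcription factors Tfe3 (0.878; 0.771 to 1.0) and Tfeb (0.767; 0.676 to 0.871) were not higher. Flcn itself had 143 and 265 UMIs, or 10.2 and 9.74 CPM, a ratio of 0.950 (0.773 to 1.17), and since 3′ tags can lie outside the deleted part this count does not check the deletion. Of 8 amino acid sensors and KICSTOR genes, 0 passed 1.5-fold in either direction. Of 6 mTORC1 partners and substrates 1 was lower, near the share of 16.0% over all genes. This was the inhibitor Deptor, at 10.4 and 4.04 CPM, a ratio of 0.389 (0.301 to 0.502), and 0 were higher.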

How the data were processed

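The members, gene lists and marker lists were chosen with earlier results of these data known. The authors pooled CD31+ cells of 3 mice per library, prepared droplet-based 3′ libraries and used Cell Ranger 3.0 (mm10, per the labels) to count UMIs. The deposited values are raw counts per gene and cell. There were 6814 control cells (64639756 UMIs) and 4459 KO cells (60805779 UMIs), with 6 barcodes in both. All cells were kept. Scrublet in scanpy 1.11.5 called 142 control and 37 KO doublets (2.08% and 0.830%), which stayed in. Seurat 5.3.0 in R 4.3.3 clustered endothelial and Ptprc-positive cells apart (2000 features without the members, anchor integration, 30 dimensions, resolution 0.8). A class name needed at least 3 markers at least 2-fold above the other cells, limits set after the clusters were seen. A mixed S100a8-led cluster was sub-clustered, also afterwards. A rebuilt name can differ from the study's.

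UMIs were summed per class and library and scaled to 1000000 (Python 3.11.15, NumPy 2.4.6, SciPy 1.17.1, pandas 2.3.3, matplotlib 3.10.9). Members with at least 50 UMIs over both libraries were compared. Counts of members past 1.5-fold and medians use log2 ratios with 1 count added. Counts carry exact Poisson, ratios exact conditional and shares Clopper-Pearson intervals at 95%, and the limit for 0 UMIs was set at 3. The ratio code was tested on simulated data. Members named in full had the 10 highest or 5 lowest endothelial ratios, the highest level of their complex, or a class at least 4-fold above those of the other kind. Others are named to complete a complex or a count. Positions are from GENCODE M21. The alternatives are listed with their effects in the closing section.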

Additional observations from a re-analysis of the deposited data

Results flagged for a closer look

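Of the named V-ATPase members, 3 had an interval above 1 in endothelial cells and below 1 in Ptprc-positive cells of the same libraries, so that their KO over control ratios lay in opposite directions. Atp6v1d had a ratio of 1.76 in endothelial and 0.813 in Ptprc-positive cells. Atp6v1g1 had 1.75 and 0.856, and Atp6v0e 1.45 and 0.938. The difference between the cell kinds was not tested, since each kind had 1 library a group. The median log2 ratio over all genes was -0.13 in endothelial and -0.02 in Ptprc-positive cells.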

How the results depend on the processing

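No paired analysis was possible because each group had 1 library. The limits for a median were the median of its members' lower interval limits and that of their upper ones. All 47 values of the 4 group medians in endothelial cells under an alternative stayed within these limits, as did all 71 Ptprc-positive V-ATPase medians. So did 66 of 68 endothelial class medians. The exceptions were the LEC-like median with thinning to 2000 UMIs (0.38) and the AEC-like median at a resolution of 0.4 (0.23). The limits were wide, and medians within them could change sign. Across the alternatives the V-ATPase median ranged from -0.15 to 0.14 in ILC3-like, from -0.09 to 0.26 in NK-like and from 0.50 to 1.03 in VEC-like cells. With a 2-fold limit 7 of 43 members were higher and 1 lower, where 3.66% of all genes were higher and 6.24% lower, and with thinning 14 of 29 were higher and 1 lower, where 7.88% and 15% of all genes were. The V-ATPase level of endothelial over Ptprc-positive cells, 1.33 in the control and 2.42 in the KO library, became 1.3 and 2.33 with at least 1 Cdh5 UMI, 1.43 and 2.65 without endothelial cells holding a Ptprc UMI, and 1.04 and 1.88 without mitochondrial, ribosomal protein and hemoglobin genes. It was 2.46 in the KO library with equal weight per cell, 1.39 in the control with thinning, and 1.39 in the control for named endothelial classes only, an alternative chosen after the data were seen. Of 1168 ratios of named members under an alternative, 1095 stayed within their interval, 70 left it and 3 were counted as reversed. A ratio was counted as reversed only where its main interval did not hold 1. The 3 included Atp6ap2 in Ptprc-positive cells (0.966 with thinning) and Tsc1 in endothelial cells (0.832 with thinning). They also included Atp6v0e in VEC-like cells (0.446 without integration, where the class held 1 KO cell). Ratios whose main interval held 1 could cross 1 and still be among the 70. Rheb did so, with a ratio of 0.984 that reached 1.38 in VEC-like cells and one of 1.07 that fell to 0.824 in HEV-like cells. The causes were not tested. The alternative of at least 1 Cdh5 UMI was not run for endothelial classes, which were clustered from cells with at least 2. Low counts limit Rragb, Atp6v0c and the capillary-like and macrophage-like cells.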
